A study of Mus musculus with 80 samples.

Results

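The 10 genes described here, Zscan4c, Zscan4d, Zscan4f, Zfp352, Tcstv1, Tcstv3, Tmem92, Usp17lc, Usp17le and Arg2, are transcripts of the two-cell-like state of mouse embryonic stem (mES) cells. They were chosen by name, with earlier results of these data known, and all 10 were found among the 22556 genes of the expression tables. Chromatin-associated RNA sequencing (ChrRNA-seq), which sequences RNA still bound to chromatin and is therefore rich in nascent and unspliced transcripts, was measured in 80 libraries of mES cells with a degron on an m6A factor or on an adaptor of the nuclear exosome. The cells came from crosses of Mus castaneus with 129S mice, were grown on inactivated fibroblast feeder cells, and carried a Dox-inducible Xist, the RNA that silences an X chromosome. The degron, FKBP12 F36V, makes the tagged protein unstable when the ligand dTAG-13 is added, so that each line served as its own control.

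The METTL3 lines (methyltransferase of the m6A writer) were 4 clones, G4 and H1 with an N-terminal tag and C3 and H5 with a C-terminal tag, with inducible Xist on the Cast X chromosome. The YTHDC1 lines (nuclear reader of m6A) were clones Y9F and Y12H, and the ZCCHC8 lines (scaffold of the NEXT adaptor of the nuclear exosome) were clones Z4F and Z12H. Both of these sets carried inducible Xist on the 129S X chromosome with a Bgl stem-loop array inserted in Xist. The ZFC3H1 lines (scaffold of the PAXT adaptor of the exosome) were clones 8H and 11A with inducible Xist on the Cast X. Every clone was sampled in 4 conditions, untreated, Dox for 24 h, dTAG-13, and dTAG-13 for 2 h followed by dTAG-13 with Dox for 24 h. The labels disagree on the time in dTAG-13 alone, which is 26 h in the sample titles and 2 h in the treatment field. The titles were followed, and the pairs without Dox measure the effect of that time. YTHDC1 was sampled in 2 experiments that lie in separate tables, the first together with ZCCHC8. A last set of lines was made from METTL3 clone H5 by adding a GFP-METTL3 transgene at Rosa26, wild type (WT) or with the substitution D395A, in XX cells and in XiO cells that had lost the 129S X chromosome. Each of these 4 lines was 1 clone sampled in 2 experiments. Replicates elsewhere were separate clones, each compared with itself. The p-values there rest on the spread left after clone and condition are fitted, with 1 spread per gene from all libraries of a table. The fit draws that spread towards that of other genes of like level. The spread used is therefore not that of the dTAG change between clones alone. Pairs with and without Dox of 1 clone enter as separate values.

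In the early mouse embryo the two-cell stage is when the zygotic genome is first transcribed broadly, and a set of genes and retroviral repeats is active then and silenced soon afterwards. In mES cell cultures a small and changing fraction of cells re-enters a state that resembles it, marked by the Zscan4 cluster, and the other cells of the culture carry little of this RNA. In bulk libraries such as these, more cells in the state and more RNA per cell cannot be told apart. Pluripotency genes checked the identity of the cells. Of 12 such genes, 11 were above 0 in all 80 libraries, Pou5f1 at 12.8 to 101 CPM (read counts scaled to the library's total) and Nanog at 21.5 to 87.0 CPM, and Sox2 was listed at 0 in all of them. Fibroblast genes of the feeder cells were measured too. The 10 such genes summed to 17.3 to 61.0 CPM over the 80 libraries, of which Fbn1 alone held 7.82 to 57.2 CPM. Col1a1 reached 5.00 CPM and Dcn 0.957 CPM, and Lum and Postn were at or near 0. Library depth ran from 8.58 to 34.4 M reads with a median of 22.5 M, so that 1 read was worth 0.0291 to 0.117 CPM and a floor of 3 reads lay between 0.0872 and 0.350 CPM. Such floors cover counting error only.

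The members lie on 5 chromosomes of the mouse genome (mm10, which is GRCm38). Zscan4c (chr7:11005744-11010547, plus strand), Zscan4d (chr7:11161642-11166148, minus) and Zscan4f (chr7:11397914-11402318, plus) belong to 1 cluster and encode SCAN and zinc finger proteins that act at telomeres. Usp17lc (chr7:103416695-103419174, plus) and Usp17le (chr7:104768048-104777470, minus) encode deubiquitinating enzymes. Tcstv1 (chr13:119893386-119894785, minus) and Tcstv3 (chr13:120316861-120318261, plus) are members of a family first described in two-cell embryos. Zfp352 (chr4:90218819-90225687, plus) encodes a zinc finger protein, Tmem92 (chr11:94777216-94782703, minus) a membrane protein, and Arg2 (chr12:79130787-79156301, plus) the mitochondrial arginase, which is used in many tissues. Exons of the GENCODE annotation cover 99.9% of the Tcstv1 span and 5.56% of the Arg2 span, and reads were counted over the whole span, introns included. No other annotated gene overlaps a member on its own strand, and on the opposite strand only Arg2 is overlapped, by Gm48780 and Vti1b. The counting used strand.

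Near-identical copies limit how much of each member could be counted, since only reads with a single alignment were kept. Of the 81-base windows along each span, the share found once in the genome was 7.05% for Zscan4f, 18% for Zscan4c, 49.4% for Usp17lc, 67.9% for Tcstv3, 72.4% for Zscan4d, 73.0% for Tcstv1, 80.4% for Usp17le, 91.6% for Tmem92, 98.1% for Zfp352 and 99.2% for Arg2. These windows are single reads, while the libraries were sequenced in pairs of 81-base reads, so the countable share can be larger. Counts of Zscan4f and Zscan4c can leave out much of the gene, and levels of members with little unique span are not comparable even per kilobase. Whether reads of a copy were assigned to the wrong member was not tested.

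The start regions show what the members share in sequence. RefSeq promoter windows (GRCm38.p6, 250 bases before the annotated start to 50 after it) were at hand for 5 members, and 3 are printed because they stand for the kinds seen among the 5. Capitals mark TATAAA, searched on both strands.
Zscan4c (chr7:11005495-11005794, plus): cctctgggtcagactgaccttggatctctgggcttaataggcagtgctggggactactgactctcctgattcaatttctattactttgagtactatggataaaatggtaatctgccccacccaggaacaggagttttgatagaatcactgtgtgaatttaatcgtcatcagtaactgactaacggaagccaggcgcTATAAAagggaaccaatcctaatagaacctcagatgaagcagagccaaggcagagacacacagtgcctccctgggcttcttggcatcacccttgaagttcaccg
Usp17lc (chr7:103416446-103416745, plus): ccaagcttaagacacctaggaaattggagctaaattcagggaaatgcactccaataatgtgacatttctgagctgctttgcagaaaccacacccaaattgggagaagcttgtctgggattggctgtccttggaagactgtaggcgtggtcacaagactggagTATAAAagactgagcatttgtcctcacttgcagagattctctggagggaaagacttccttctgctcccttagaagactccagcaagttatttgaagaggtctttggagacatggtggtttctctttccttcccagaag
Zfp352 (chr4:90218570-90218869, plus): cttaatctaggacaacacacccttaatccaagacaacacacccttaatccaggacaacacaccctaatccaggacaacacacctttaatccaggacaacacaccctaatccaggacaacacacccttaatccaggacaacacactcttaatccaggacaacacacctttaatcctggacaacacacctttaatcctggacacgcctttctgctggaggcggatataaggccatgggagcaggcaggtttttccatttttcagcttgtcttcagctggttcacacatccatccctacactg

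The Zscan4 windows were near copies of each other, with 90.7% identity between Zscan4c and Zscan4d, 85.1% between Zscan4c and Zscan4f and 77.5% between Zscan4d and Zscan4f, and the 3 share an unbroken stretch of 55 bases that holds the TATAAA near its 5′ end, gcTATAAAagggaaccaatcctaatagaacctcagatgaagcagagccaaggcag. By contrast, windows of Usp17lc and Zfp352 had 48.1% to 50.2% identity with those of the other members, Zscan4 windows included. TATAAA stood in 4 of the 5 windows, all but that of Zfp352, and in 13.6% of all 32851 windows. The Zfp352 window held 8 copies of the unit GGACAACACAC, a run found in no other window, as 1 of all windows held it. The sequence GGACT, a core of the m6A consensus, occurred 0 to 3 times in the exons of a member on the transcript strand. It was present in 7 of the 10 members and in 90.2% of the 21911 genes counted, a share that depends on exon length. Per kb of exon the median over all genes was 0.978. Tcstv3 at 2.57, Tcstv1 at 1.43 and Tmem92 at 1.37 lay above it, and the other members at 0 to 0.51 lay below.

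Loss of ZCCHC8 raised all 10 members. The dTAG effect is the mean of the log2 change in the pairs without Dox (dTAG-13 against untreated) and in the pairs with Dox (both against Dox alone), on the scale log2(CPM + 0.25), with clone as a block. A member was called at an adjusted p under 0.05 from limma over all genes tested. In ZCCHC8, 10 of 10 members were called higher and 0 lower, beside 31.6% of the 17351 genes tested that were called higher and 19.4% called lower. Among the 5903 genes whose mean level lay in the range of the members, 0.378 to 7.48 CPM, the share called higher was 45.4%. The median dTAG effect of the members was 1.53 and the range 1.06 to 2.22, beside a median of 0.07 over all genes tested, and 5.29% of all genes had a larger effect than the least changed member.

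Zscan4d and Zscan4c had the largest dTAG effects of the 10 members in ZCCHC8. Zscan4d in clone Z4F stood at 2.77 CPM untreated and 2.02 with Dox, and at 11.9 with dTAG-13 and 15.1 with both. In clone Z12H it stood at 5.64 CPM untreated and 5.64 with Dox, and at 24.4 with dTAG-13 and 24.1 with both. All 4 libraries with dTAG-13 lay above all 4 without, and the dTAG effect was 2.22 ± 0.13 (SE), or 4.66-fold (limma adjusted p = 1.87e-10). Zscan4c went from 2.05 CPM untreated and 2.16 with Dox to 7.46 and 12.7 with dTAG-13 in clone Z4F, and from 4.11 and 4.61 to 15.4 and 21.1 in clone Z12H. Again no library with dTAG-13 fell among those without, with an effect of 2.03 ± 0.12 (SE; limma adjusted p = 3.41e-10). Zscan4f, read over the smallest unique part of its span, stood at 3.15 to 5.98 CPM in the 4 libraries without dTAG-13 and at 9.25 to 26.1 CPM in the 4 with it, an effect of 1.79 ± 0.11 (SE; limma adjusted p = 3.20e-10).

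Zfp352, whose span is almost wholly unique, rose by an amount between those of Zscan4c and Zscan4f. In clone Z4F it went from 2.24 CPM untreated and 1.53 with Dox to 8.72 and 8.87 CPM with dTAG-13, and in clone Z12H from 3.58 and 4.41 to 16.5 and 13.2 CPM. Groups did not overlap, and the effect was 1.97 ± 0.14 (SE), or 3.91-fold (limma adjusted p = 2.64e-09). The 2 Tcstv genes were the lowest members. Tcstv3 lay at 0.523 to 1.05 CPM without dTAG-13 and at 1.53 to 4.13 CPM with it, an effect of 1.57 ± 0.16 (SE). Tcstv1 lay at 0.0746 to 0.564 CPM without and at 0.466 to 1.18 CPM with dTAG-13, an effect of 1.06 ± 0.20 (SE; limma adjusted p = 0.000245), and was the only member whose groups overlapped. Its lowest value, in clone Z4F with Dox, was under the 3-read floor.

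The deubiquitinase genes, Tmem92 and Arg2 had effects between those of Tcstv1 and Tcstv3. Usp17lc stood at 1.00 to 2.55 CPM in libraries without dTAG-13 and at 3.86 to 6.71 CPM in those with it, and Usp17le at 1.08 to 2.24 and 3.53 to 5.88 CPM, with effects of 1.50 ± 0.13 and 1.23 ± 0.13 (SE). Tmem92 was the most even, at 3.10 to 4.66 CPM without and 9.79 to 11.4 CPM with dTAG-13, an effect of 1.37 ± 0.11 (SE). Arg2, which is not confined to early embryos, stood at 2.15 to 3.99 CPM without and 6.52 to 11.1 CPM with dTAG-13, an effect of 1.38 ± 0.13 (SE), or 2.60-fold (limma adjusted p = 1.39e-07). In 9 of the 10 members every library with dTAG-13 was above every library without, a pattern seen in 18.8% of all genes tested. All 4 pairs of 1 clone with and without dTAG-13 were higher with it for each of the 10 members, the smallest at 1.51-fold for Usp17le and the largest at 6.77-fold for Zscan4d.

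**Figure D1:**
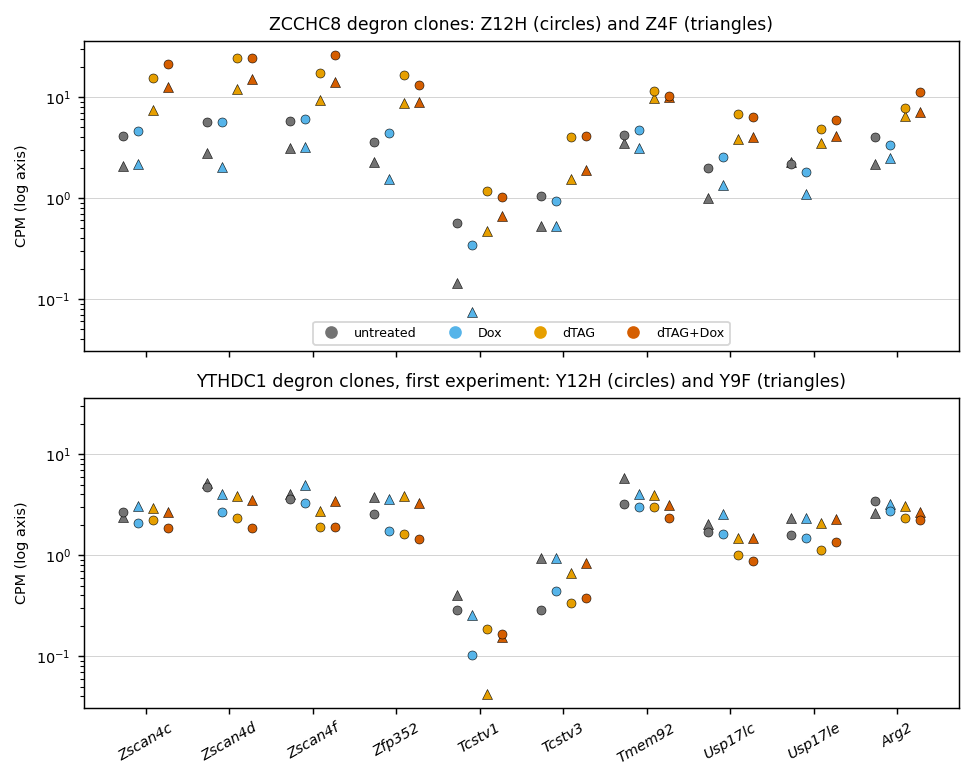
Level of each member in CPM (log axis) in the 8 ZCCHC8 libraries (top) and the 8 libraries of the first YTHDC1 experiment (bottom), 1 point per library, coloured by treatment and shaped by clone. In ZCCHC8 the points with dTAG-13 stand above those without for 9 of the 10 members, with Tcstv1 as the exception, and in YTHDC1 Usp17lc is the only member whose points with dTAG-13 all stand below.

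The 2 ZCCHC8 clones differed in level more than in response. Summed over the 10 members, untreated Z4F held 19.8 CPM and untreated Z12H 33.1 CPM, and with dTAG-13 they held 63.0 and 109 CPM. The median log2 change of the members was 1.49 in Z4F and 1.59 in Z12H without Dox, and 1.65 and 1.62 with Dox. Induction of Xist made no called difference to the response. For the change with Dox minus the change without, 0 of 10 members were called in ZCCHC8 by limma or by edgeR, 2 had an unadjusted p under 0.05, and 0.184% of all genes tested were called. The 2 were Usp17le at 0.81 ± 0.27 (SE; limma adjusted p = 0.384) and Zscan4f at 0.56 ± 0.21 (SE; limma adjusted p = 0.455).

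Other genes of the two-cell state moved in the same direction in ZCCHC8. A list of 42 such genes beyond the members was chosen with earlier results of these data known. Of these, 28 were in the tables and 24 passed the filter. That filter is a mean CPM over all libraries of the table, so a rare gene could pass it only through the raised libraries. Of those tested, 24 of 24 were called higher, beside 31.6% of all genes tested. Their median dTAG effect was 1.56 and the range 0.70 to 2.24. They included Zscan4e at 2.24, Gm2022 at 2.06, Gm2016 at 2.00, Gm5662 at 2.00, Zscan4a at 1.97 and Gm8300 at 1.96. Several are close copies of a member or of each other, so their reads are not independent. The Tdpoz genes, a family of copies active in early embryos, were at the low end, with Tdpoz2 at 0.77 and Tdpoz1 at 0.97.

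Listed regulators of the state had effects between -0.31 and 0.85, below that of the least changed member. Of 7 genes listed as activators, 6 were called higher with a median effect over the list of 0.24, led by Dppa3, a maternal factor of the early embryo, at 0.85 ± 0.09 (SE), then Nelfa at 0.40 and Dppa2 at 0.28, and 0 were called lower. Of 18 genes listed as repressors, 8 were called lower and 4 higher, with effects from -0.31 for Dnmt1, the maintenance DNA methyltransferase, and -0.29 for Chaf1b, a subunit of the chromatin assembly factor, to 0.26 for Lin28a. Among pluripotency genes 2 were called higher and 3 lower of 11 tested, with Tfcp2l1 at -0.63 and Klf4 at -0.43, both transcription factors of the naive state, and Tdgf1 at 0.31. Feeder fibroblast genes summed to 35.6 to 40.7 CPM without dTAG-13 and to 39.4 to 46.2 CPM with it in ZCCHC8, and 0 of 8 tested were called by limma, although all 8 had effects above 0, from 0.09 to 0.42. Their part in the result was not tested. Trophoblast genes were called higher in 3 of 6 cases, Elf5 at 0.90, Gata3 at 0.46 and Eomes at 0.44, and of 7 primitive endoderm genes 3 were called higher, Gata6 at 0.68, Dab2 at 0.40 and Gata4 at 0.37, and 1 lower, Lama1 at -0.69. These counts stand beside 31.6% of all genes called higher and 19.4% called lower, and nothing particular to these lists is read from them.

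**Figure D2:**
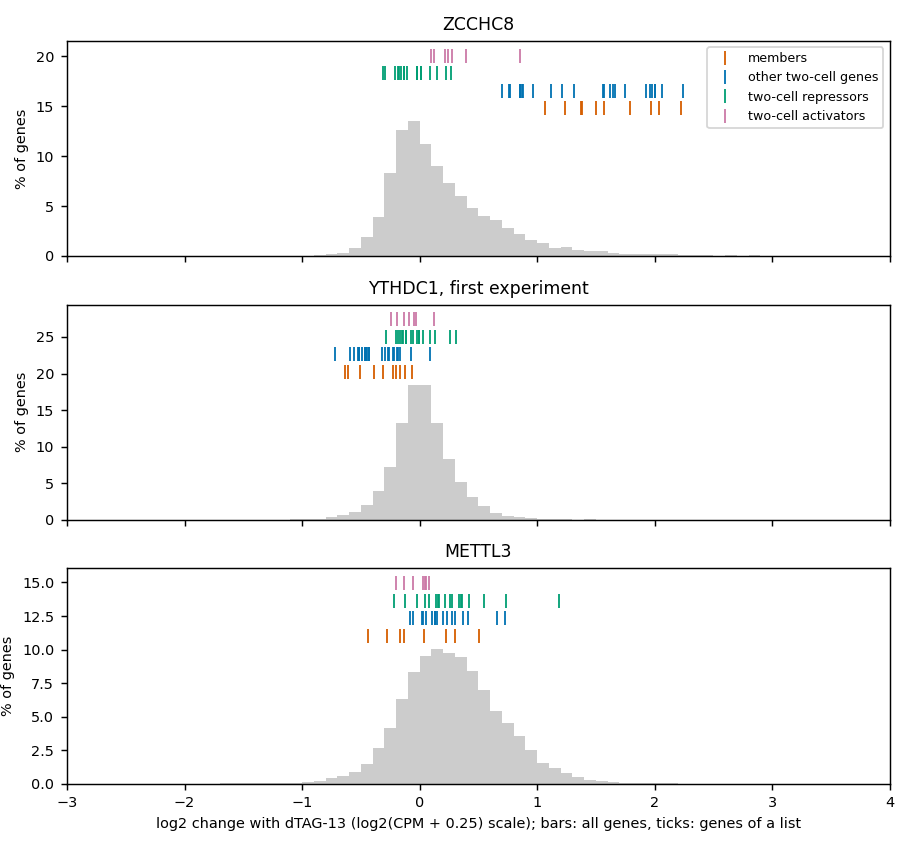
Distribution of the dTAG effect (log2 change on the log2(CPM + 0.25) scale, x axis) over all genes tested (grey bars, percent of genes) in ZCCHC8, the first YTHDC1 experiment and METTL3, with ticks for the members and for 3 other gene lists. The members range from 1.06 to 2.22 in ZCCHC8, from -0.64 to -0.06 in YTHDC1 and from -0.43 to 0.51 in METTL3.

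With loss of YTHDC1 some of the same genes were called lower, by a small amount, but no member was called in both experiments. In the first experiment, 4 of 10 members were called lower and 0 higher, beside 11.4% of all 17351 genes tested called lower, 15.3% called higher, and 7.28% of the genes of like level called lower. The median dTAG effect was -0.27, with all 10 members below 0, beside a median of 0.01 over all genes. Zscan4f fell by 0.64 ± 0.11 on the log2 scale (SE; limma adjusted p = 0.000229), from 3.28 to 4.96 CPM without dTAG-13 to 1.91 to 3.41 CPM with it. Usp17lc fell by 0.61 ± 0.13 (SE; limma adjusted p = 0.00151). It stood at 1.71 and 2.04 CPM untreated, 1.61 and 2.54 with Dox, 1.01 and 1.47 with dTAG-13 and 0.878 and 1.50 with both, so that its groups did not overlap. Zscan4d fell by 0.51 ± 0.13 (SE; limma adjusted p = 0.00627) and Tmem92 by 0.32 ± 0.11 (SE; limma adjusted p = 0.0481), and both had libraries with dTAG-13 among those without.

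The other 6 members in the first YTHDC1 experiment had effects between -0.39 for Tcstv1 and -0.06 for Zscan4c and were not called. These calls rest on the clone as a block, since 0 of 10 members were called without it, while 4 were called lower by edgeR. The median log2 change of the members was -0.45 in clone Y12H and -0.38 in clone Y9F without Dox, and -0.25 and -0.22 with Dox. Usp17lc was the only member with every library with dTAG-13 below every library without, a pattern seen in 6.17% of all genes tested. Feeder fibroblast genes in this experiment summed to 33.0 to 35.4 CPM untreated and 40.9 to 41.9 CPM with dTAG-13, and to 30.4 to 32.7 CPM with Dox and 34.7 to 35.7 CPM with both. Of 8 tested, 1 was called higher, Fbn1 at 0.25, which was also called higher in the second experiment, at 0.37. Their part in the result was not tested.

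The second YTHDC1 experiment, in the same 2 clones but with separate libraries and at lower levels of the members, called 1 of 9 members lower, and 0 higher, beside 13.1% of 16857 genes called lower and 13.5% called higher. That member was Zscan4c, which fell by 0.49 ± 0.16 (SE; limma adjusted p = 0.0281). Its values were 1.51 CPM untreated, 1.99 with Dox, 1.15 with dTAG-13 and 1.54 with both in clone Y9F, and 1.23, 1.06, 0.618 and 0.643 CPM in the same order in clone Y12H, and the groups overlapped. Zscan4f fell by 0.37 ± 0.18 and Usp17lc by 0.32 ± 0.16 on the log2 scale (SE), neither called (limma adjusted p = 0.135 and 0.156). Over the 9 tested members 7 were below 0 and the median was -0.21. No member was called in both experiments, and the tables were normalised separately, so the difference between the experiments was not tested. Tcstv1, at 0 to 0.212 CPM, did not pass the filter there.

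Some other two-cell genes were called lower in YTHDC1, most were not. Of 24 tested in the first experiment 9 were called lower and 0 higher, beside 11.4% of all genes called lower, with a median of -0.43, led by Zscan4e at -0.72, Zscan4b at -0.59 and Sp110 at -0.56. In the second experiment 4 of 20 were called lower and 0 higher, beside 13.1% of all genes called lower, Sp110 at -0.55, Zscan4b at -0.52, Gm5662 at -0.51 and Gm2016 at -0.35. Of 11 pluripotency genes tested, 4 were called lower in the first experiment and 5 in the second, beside the same shares of all genes, 11.4% and 13.1%, with Tfcp2l1 at -0.35 and -0.37.

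**Figure D3:**
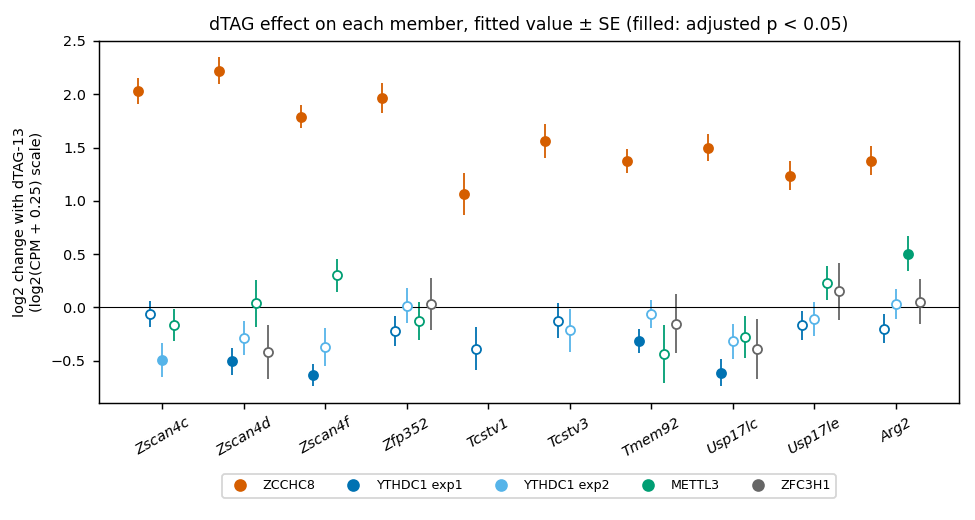
The dTAG effect on each member (log2 change on the log2(CPM + 0.25) scale, y axis) in the 5 degron sets, as the fitted value with its standard error. Filled points passed an adjusted p of 0.05 in limma, and members below the filter of a set are not drawn. All 10 ZCCHC8 points are filled and above 1, and the YTHDC1 points lie at or below 0.03.

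ZCCHC8 and the first YTHDC1 experiment share a table, so their dTAG effects could be compared directly. The difference, ZCCHC8 minus YTHDC1, was called higher for 10 of 10 members, beside 23.1% of all genes tested, with a median of 1.89 and a range of 1.40 to 2.73. It was widest for Zscan4d at 2.73 ± 0.18 (SE) and narrowest for Usp17le at 1.40 ± 0.19 (SE). Without dTAG-13 the levels of both lines overlapped. Summed over the members, the 4 control libraries held 17.5 to 34.3 CPM in ZCCHC8 and 19.2 to 29.4 CPM in YTHDC1.

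Loss of METTL3 gave 1 called change among the members, in cells that held less of these RNAs. The 10 members summed to 1.78 to 7.02 CPM over the 16 METTL3 libraries. Tcstv1 and Tcstv3 did not pass the filter. Of the 8 tested, 1 was called higher and 0 lower, beside 33.3% of 16638 genes called higher and 7.13% called lower. The median dTAG effect was -0.05 beside a median of 0.25 over all genes tested, so members' changes here stand against that raised median. The member called was Arg2, at 0.51 ± 0.17 (SE; limma adjusted p = 0.0296), which stood at 0.887, 0.844, 1.36 and 1.01 CPM untreated and at 1.73, 1.43, 1.10 and 2.18 CPM with dTAG-13 in clones G4, H1, C3 and H5. With Dox it stood at 0.615, 0.548, 0.892 and 1.38 CPM, and with both at 1.40, 1.27, 0.826 and 1.56 CPM. It was higher with dTAG-13 in clones G4, H1 and H5 and lower in clone C3. The Arg2 call did not survive median-ratio scaling, at 0.33, edgeR, at 0.35, or the fit without the clone block, nor leaving out clone G4, H1 or H5, and without clone C3 it was 0.73 (limma adjusted p = 0.00934). Of 8 feeder fibroblast genes tested in METTL3, 3 were called higher, beside 33.3% of all genes. Their sums were 27.6 to 41.6 CPM untreated and 40.01 to 49.1 CPM with dTAG-13, and 23.3 to 49.4 CPM with Dox and 27.7 to 50.3 CPM with both, and their part in the result was not tested.

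None of the Zscan4 genes was called after METTL3 loss. Zscan4c changed by -0.17 (95% interval -0.49 to 0.16), Zscan4d by 0.04 (-0.44 to 0.52) and Zscan4f by 0.30 (-0.0354 to 0.64). Zfp352 changed by -0.13 (-0.52 to 0.26). The tables were normalised separately, so the difference from YTHDC1 or ZCCHC8 was not tested. The 4 clones were unlike in level. Untreated Zscan4d stood at 1.12 CPM in clone G4, 0.328 CPM in clone C3, 0.303 CPM in clone H5 and 0.0889 CPM in clone H1. Of 17 other two-cell genes tested, 2 were called higher, Gm2016 at 0.72 and Gm5662 at 0.66, and 0 lower. Of all genes tested in METTL3, 33.3% were called higher and 7.13% lower.

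ZFC3H1 loss gave no called change either. The members summed to 0.892 to 2.93 CPM in the 8 libraries, and 6 of 10 passed the filter. Among them 0 were called by limma, 0 by edgeR and 0 at an unadjusted p under 0.05, beside 8.28% of 16605 genes called in either direction. Effects ran from -0.42 for Zscan4d, with a 95% interval of -0.97 to 0.13, to 0.15 for Usp17le, with an interval of -0.44 to 0.73. Clone 8H held little of any member but Arg2, with Zscan4d at 0 in 3 of its 4 libraries and 0.152 CPM in that with Dox. In clone 11A Zscan4d stood at 0.394 CPM untreated, 0.224 with Dox, 0.263 with dTAG-13 and 0.051 with both. ZFC3H1 and ZCCHC8 lie in separate tables and in different parental lines, so their difference was not tested.

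**Figure D4:**
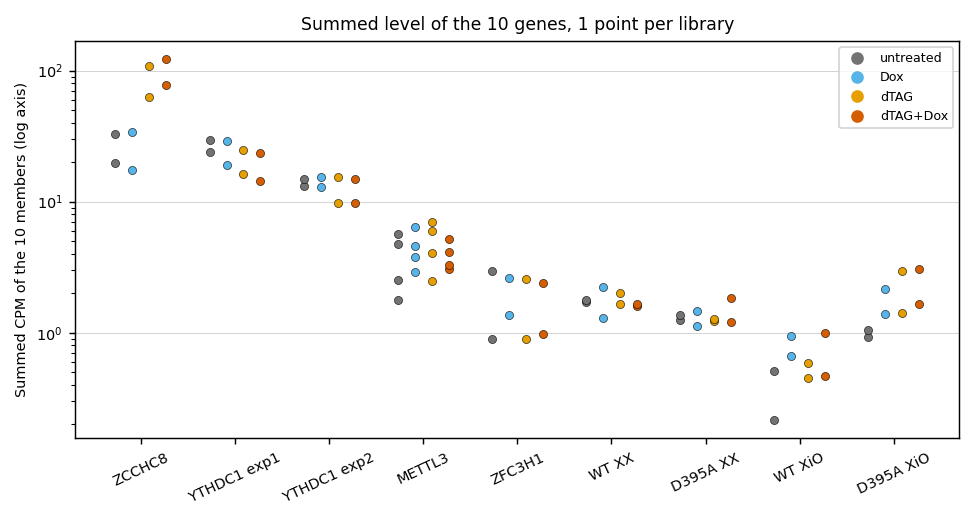
Summed level of the 10 members in CPM (log axis), 1 point per library, by line and treatment. The tables of the sets were normalised separately. Sums run from 63.0 to 123 CPM in ZCCHC8 with dTAG-13, lie below 35 CPM in the ZCCHC8 controls and in YTHDC1, and at or below 7.02 CPM in the other sets.

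The level of the members before any treatment differed between sets by far more than YTHDC1 or METTL3 loss moved them. Untreated libraries held 19.8 and 33.1 CPM summed over the members in ZCCHC8, 24.0 and 29.4 CPM in the first YTHDC1 experiment, 13.1 and 14.9 CPM in the second, 1.78 to 5.68 CPM in METTL3 and 0.892 and 2.93 CPM in ZFC3H1. These sums come from tables normalised separately. The high sets are those with inducible Xist on the 129S X and the Bgl array, and parental line, table and culture cannot be told apart as sources of this difference. Levels can be set side by side per kilobase of span, introns included, for the 3 members whose spans are over 90% unique. In untreated ZCCHC8 cells Tmem92 stood at 0.707, Zfp352 at 0.424 and Arg2 at 0.120 CPM per kb of span, as means of 2 clones. The ranges of the clones did not overlap between these 3, at 0.644 to 0.771 for Tmem92, 0.327 to 0.522 for Zfp352 and 0.0842 to 0.156 for Arg2. Exons cover 39.9% of the Tmem92 span, 32.9% of the Zfp352 span and 5.56% of the Arg2 span. The order therefore holds per kb of span only, and an order per kb of exon was not tested. The other 7 members, with less of their span unique, are not ordered here.

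The GFP-METTL3 lines held almost none of these RNAs apart from Arg2. In the 16 XiO libraries Zscan4c was at 0 in all 16, Tmem92 at 0 in 15 and Tcstv3 at 0 in 15. In the 16 XX libraries Zscan4d, the highest of the Zscan4 genes, averaged 0.103 CPM in WT and 0.0934 CPM in D395A cells. Only Arg2 passed the filter in these 4 lines. It was not called in any of them, with effects of -0.14 ± 0.26 in WT XX, 0.09 ± 0.26 in D395A XX, 0.17 ± 0.30 in WT XiO and 0.55 ± 0.30 in D395A XiO (SE). The shares of all genes called were 0% in WT XX, 15.5% in D395A XX, 0% in WT XiO and 4.95% in D395A XiO. By edgeR 0 of these 4 effects were called as well, and 0 had an unadjusted p under 0.05. Libraries of 1 experiment deviated together, with correlations of 0.394 to 0.905, and with the experiment as a block Arg2 was called in D395A XiO (0.55 ± 0.20, SE; limma adjusted p = 0.0391) and in none of the other 3 lines, so the absence of a call in D395A XiO depends on this choice.

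D395A and WT transgenes could be compared within each table. For Arg2 the dTAG effect in D395A minus that in WT was 0.23 ± 0.37 in XX cells and 0.38 ± 0.43 in XiO cells (SE), neither called by limma or edgeR nor at an unadjusted p under 0.05, and neither called with the experiment as a block (limma adjusted p = 0.635 and 0.362). Of all genes 1.73% were called in XX and 0.00607% in XiO. Arg2 in D395A XiO stood at 0.893 to 2.93 CPM and in WT XiO at 0.215 to 0.901 CPM. In the second experiment the D395A XiO library without treatment held 0.893 CPM and the other 3 held 2.05 to 2.93 CPM, while in the first all 4 lay between 1.04 and 1.54 CPM.

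**Figure D5:**
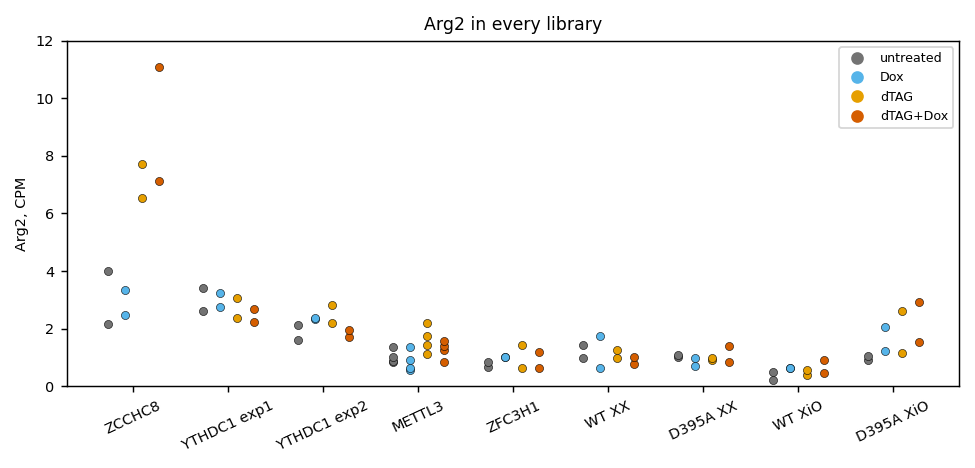
Arg2 in CPM in all 80 libraries, 1 point per library, by line and treatment. It is the only member measured above the filter in every line. The 4 ZCCHC8 libraries with dTAG-13 lie between 6.52 and 11.1 CPM, and all others lie at or below 3.99 CPM.

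Xist induction alone gave no called change in the members. For Dox against untreated, 0 members were called in any of the 9 sets by limma or by edgeR, of 10 tested in ZCCHC8 and in the first YTHDC1 experiment, 9 in the second, 8 in METTL3, 6 in ZFC3H1 and 1 in each transgene line. Unadjusted p-values under 0.05 were found for 2 members in METTL3, 1 in ZCCHC8, 1 in the first YTHDC1 experiment and 0 in the others. The shares of all genes called for Dox were 8.39% in ZCCHC8, 9.56% and 8.01% in the YTHDC1 experiments, 0.541% in METTL3, 1.08% in ZFC3H1, 0.00608% in WT XX, 0.17% in D395A XX, 0.923% in WT XiO and 0.431% in D395A XiO. Median changes of the members with Dox were -0.05 in ZCCHC8 and -0.02 and 0.09 in the YTHDC1 experiments.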

How the data were processed

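ChrRNA-seq was deposited as CPM tables, 1 for each set of lines. Per the methods, the authors discarded rRNA matches (bowtie2), mapped what was left onto an N-masked mm10 genome using STAR with single alignments kept, counted them by strand over whole transcript spans with featureCounts, and scaled by library size with edgeR. Whole reads could be recovered for 100% of the deposited CPM values, to within 0.0001 CPM. The allelic ratio tables were not used, nor were 12 columns that match no sample label. The 2 YTHDC1 tables carry the same column names, and the table labelled as the second replicate was taken as the second experiment.

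The tests (two-sided) used limma 3.58.1, its lmFit and eBayes functions with a trend, under R 4.3.3, on log2(CPM + 0.25) of genes averaging 0.1 CPM or more across a table's libraries, with clone as a block in degron lines and no block in transgene lines, and Benjamini-Hochberg adjustment over all genes tested. A fold change on this scale understates changes of low genes. Clones are the same cell line in each condition, and deviations of libraries of 1 clone from their group means correlated at 0.168 to 0.893 in the sets of 2 clones and at -0.181 to 0.839 in METTL3. Libraries of 1 experiment in the transgene lines correlated at 0.394 to 0.905, so the fit with experiment as a block is given beside the unblocked one. The 56 replicate pairs held 0 identical libraries. Alternatives were edgeR 4.0.16 quasi-likelihood tests on the recovered reads, other pseudocounts, filters, scaling and blocks, each clone or experiment left out, and pairs with or without Dox. The fits of METTL3 and of ZCCHC8 with the first YTHDC1 experiment were also run on simulated counts. These counts held no difference between clones, so they cannot test the clone block. The members and gene lists were chosen with earlier results of these data known. All 10 members are named, with up to 6 called genes per line from each other list.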

Additional observations from a re-analysis of the deposited data

Results flagged for a closer look

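The dTAG effect differed between ZCCHC8 and the first YTHDC1 experiment for all 10 members, by a test of the difference in 1 table (limma, adjusted over all genes). The differences, ZCCHC8 minus YTHDC1 on the log2 scale, were 2.73 for Zscan4d, 2.42 for Zscan4f, 2.19 for Zfp352, 2.11 for Usp17lc, 2.10 for Zscan4c, 1.69 for Tcstv3, 1.69 for Tmem92, 1.58 for Arg2, 1.45 for Tcstv1 and 1.40 for Usp17le.

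In the METTL3 groups of 4 clones, 32 combinations of a member and a group were examined for a library far from the others, and 3 were found, where chance alone gives about 1 in 20. Usp17lc with dTAG-13 stood at 0.702 CPM in clone G4 and at 0.0796 to 0.160 CPM in the other 3 clones, a gap of 0.871 of the range. The values of the other 3 clones are 1 to 3 reads each, at or under the 3-read floor. Zfp352 with Dox stood at 0.798 CPM in clone C3 and at 0.299 to 0.332 CPM in the others, a gap of 0.934 of the range. Zscan4f with both agents stood at 1.19 CPM in clone G4 and at 0.446 to 0.565 CPM in the others, a gap of 0.840 of the range.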

How the results depend on the processing

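The ZCCHC8 result held under each alternative counted here, which leaves out edgeR on 1 kind of pair. There edgeR called 9 of 10 members in ZCCHC8 without Dox and 10 of 10 with Dox. For ZCCHC8 minus YTHDC1 it called 10 of 10 without Dox and 9 of 10 with Dox. All 109 alternative values of the members' dTAG effects kept their direction, between 0.51 and 2.4. So did all 119 of ZCCHC8 minus YTHDC1, between 0.66 and 2.94. Both sets include fits with 1 clone left out, where the line of that clone keeps 1 library per group. The spread in these fits comes from the clones of the other line, so only the sizes of their effects are read. The counts in the first YTHDC1 experiment moved, from 4 to 0 with no replicate block, and to 2 in pairs without Dox and 2 in pairs with Dox. In the second experiment the single call was lost with no filter, with no replicate block and in either kind of pair (0 each). The single METTL3 call, Arg2, was lost with median-ratio scaling, edgeR, no replicate block and either kind of pair (0 each), and counts were 0 to 1 when a clone was left out. With the experiment as a replicate block 1 member, Arg2, was called in D395A XiO, and with no filter 1, Zfp352. Under median-ratio scaling 1 member, Zscan4d, was called for Dox in the first YTHDC1 experiment. The cause of these changes was not tested.

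Signs turned only for values that were not called. In pairs without Dox alone these were Zscan4c in METTL3 (0.0194) and in the first YTHDC1 experiment (0.0327), Zfp352 (-0.0386) and Usp17le (0.0385) in the second, Zfp352 in ZFC3H1 (-0.34), and Arg2 in D395A XX (-0.12) and in D395A minus WT XX (-0.0580). In pairs with Dox alone they were Zscan4d (-0.42) and Zscan4f (-0.0371) in METTL3, Arg2 in the second YTHDC1 experiment (-0.33), and Usp17lc (0.0539) and Arg2 (-0.19) in ZFC3H1. Zscan4d in METTL3 also turned with a pseudocount of 1 CPM (-0.0024), median-ratio scaling (-0.10) and edgeR (-0.16). With 1 clone or experiment left out, Zscan4d in METTL3 ran from -0.17 to 0.35, Zfp352 in METTL3 from -0.33 to 0.0237, Zscan4c in the first YTHDC1 experiment from -0.18 to 0.0504, and Arg2 from -0.55 to 0.27 in WT XX, from -0.19 to 0.37 in D395A XX and from -0.18 to 0.64 in D395A minus WT XX. Without 1 clone of YTHDC1 in the second experiment or of ZFC3H1 no residual degrees of freedom are left, and a filter at 1 CPM leaves no member of ZFC3H1, so no count was given. In ZFC3H1 and the transgene lines most members lie at or near the 3-read floor, and small changes were not detectable at this depth.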

Other observations

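Log2 levels were centred on the mean of their clone in that table. These centred values were correlated over the 48 degron libraries with the mean of the 6 members above the filter in each table. Of 16161 other genes, the highest were Spats1 (Pearson r 0.909), Cd84 (0.903), Gm8300 (0.880), Nell1 (0.879) and Gm5129 (0.878). These are descriptions over libraries that share clones and tables, and rest largely on ZCCHC8. Over the 40 libraries without ZCCHC8 the same values were 0.447 for Spats1, 0.576 for Cd84, 0.574 for Gm8300, 0.258 for Nell1 and 0.0732 for Gm5129. Spats1 rose 3.42-fold in ZCCHC8 and fell by 0.33 on the log2 scale in the first YTHDC1 experiment and by 0.48 in the second, all called, and Cd84 rose 3.70-fold and fell by 0.61 in the first. Gm5129 rose 7.27-fold in ZCCHC8 and was not called in YTHDC1, at 0.07 and 0.06. Each of these 6 members was compared with the mean of the other 5 in the same way, and Zscan4c, Zscan4f, Tcstv1 and Tcstv3 were not. The correlation ran from 0.611 for Arg2 to 0.815 for Zfp352 over the 48 libraries, and from -0.137 for Arg2 to 0.210 for Zfp352 over the 40 without ZCCHC8.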
